A study of Mus musculus with 6 samples.

Results

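A set of 37 genes that carry glucose into the cell and through glycolysis, glycogen, the pentose phosphate pathway and the entry of pyruvate into mitochondria was followed in macrophages sorted from mouse calf muscle 3 days after hindlimb ischemia, an injury that interrupts the blood supply of the leg. Members were the rows of the deposited count table whose symbol equals one of 37 names, and all 37 were found among the 55353 rows and passed the filter on low counts, beside 14987 genes tested in all. The phosphofructokinases and lactate dehydrogenases are not among them. The KO group (3 libraries) came from mice labelled as pfkfb3-ko and the WT group (3 libraries) from mice labelled WT. All mice carried the mixed background 129S1/Sv * 129X1/SvJ * C57BL/6 * CBA, and the treatment protocol, given for both groups, was 1 mg of tamoxifen a day for 5 days followed by a washout of at least 7 days. Pfkfb3 encodes an enzyme that makes fructose 2,6-bisphosphate, an activator of phosphofructokinase. The design text marks the deletion as EC, which the series title spells out as endothelial cells, while the genotype label gives none. Neither the Cre driver nor the age of the mice is given in the sources used here. The comparison asked how muscle macrophages differ when Pfkfb3 is deleted in endothelial cells. Whether libraries stem from different animals is not stated, so every p-value reflects only the spread between these libraries, which may be technical.

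Macrophages take up glucose through facilitative transporters of the GLUT family, and hexokinases trap it as glucose 6-phosphate. From there it can run down glycolysis to pyruvate, enter the oxidative pentose phosphate pathway, which yields NADPH for the oxidative burst and for glutathione, or be stored as glycogen by way of glucose 1-phosphate and UDP-glucose. Inflammatory activation and hypoxia are known to raise glycolytic genes in macrophages, in part through the transcription factor HIF-1.

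Library totals were 18853712 to 21070130 counts in KO and 21029637 to 29060584 counts in WT, of which protein-coding genes held 9176529 to 12422641 counts in KO and 16995733 to 22751784 in WT. A group of 6 abundant noncoding rows took 39.5% to 51.8% of the counts in KO and 17.1% to 21.3% in WT, so this share cannot be told apart from the genotype. Xist reached 154 and 171 CPM in KO replicates 1 and 2 and was no higher than 0.465 CPM in the other 4 libraries, so the KO group mixes libraries with and without this marker of female cells. Counts of protein-coding genes in KO replicates 1 and 2 differed beyond sampling noise (chi-square over degrees of freedom 3.88, against 29.5 to 119 in other pairs), and both were kept as separate samples. Pfkfb3 itself was at 55.5, 59.3 and 160.1 CPM in KO replicates 1 to 3, against 70.9, 101 and 82.4 CPM in WT replicates 1 to 3, and its level in macrophages does not check a deletion in endothelial cells. The macrophage markers Adgre1, Csf1r, Cd68 and Lyz2 were present in every library, with Lyz2 at 4682 to 5039 CPM in KO and 3345 to 5287 CPM in WT. Levels are in CPM, counts scaled to a common library size with TMM, a factor that centres most genes between libraries. The libraries are bulk RNA, so fewer cells that express a gene and less of its RNA per cell cannot be told apart.

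Mean levels of glucose metabolism genes were mostly close in the KO and WT macrophages, and 1 of them, Ugp2, fell. The means join KO libraries that differ, as the members summed to 3912, 3928 and 2381 CPM in KO replicates 1 to 3. The sums in WT replicates 1 to 3 were 3596, 3553 and 4001 CPM. In simulated data 4.48% of genes changed 1.5-fold were called, so a lack of calls does not show equal levels. The edgeR quasi-likelihood test called 1 of 37 members lower and 0 higher at an adjusted p under 0.05, where 2.25% of all 14987 tested genes were called lower and 4.39% higher, and 2.70% of the members against 6.64% of all genes were called in either direction. An unadjusted p under 0.05 was reached by 7 members, 5 lower in KO (Slc2a3, Slc2a6, Gapdh, Pgam1 and Ugp2) and 2 higher (Bpgm and Pygb). The share of all genes at this unadjusted threshold was not counted, so the 7 cannot be set against it. DESeq2 called 3 members lower and 1 higher, where it called 5.19% of all genes lower and 7.29% higher. Limma-voom with sample weights, a method that gives each library its own weight, called 4 lower (Slc2a3, Slc2a6, Pgam1 and Ugp2) and 7 higher (Hk1, Bpgm, Pgm1, Gys1, Pygb, Pgls and Rpia), where it called 15.0% of all genes lower and 17.4% higher. The median log2 fold change of the members was -0.08, with 15 above 0 and 22 below, against 0.01 over all tested genes. Scaling by library sizes alone shifted all genes, to a median of -0.60, and the members with them, to -0.69, and called 23 members lower where it called 40.1% of all genes lower. Relative to all genes the members' median was then -0.09, the same as with TMM scaling. The KO and WT libraries did not overlap in 10 members (27.0%), 7 lower in KO (those 5, Pgm2 and Rpe) and 3 higher (those 2 and Gys1), where 31.5% of all tested genes did not overlap, 14.7% lower and 16.8% higher. The size of the log2 fold change was under 0.5 in 32 members and no more than 0.84 in any. The 95% interval excluded a 2-fold change in either direction in 32 members, and the 5 whose interval reached past it were Ugp2, Slc2a6, Aldoc, Eno2 and Me1.

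**Figure D1:**
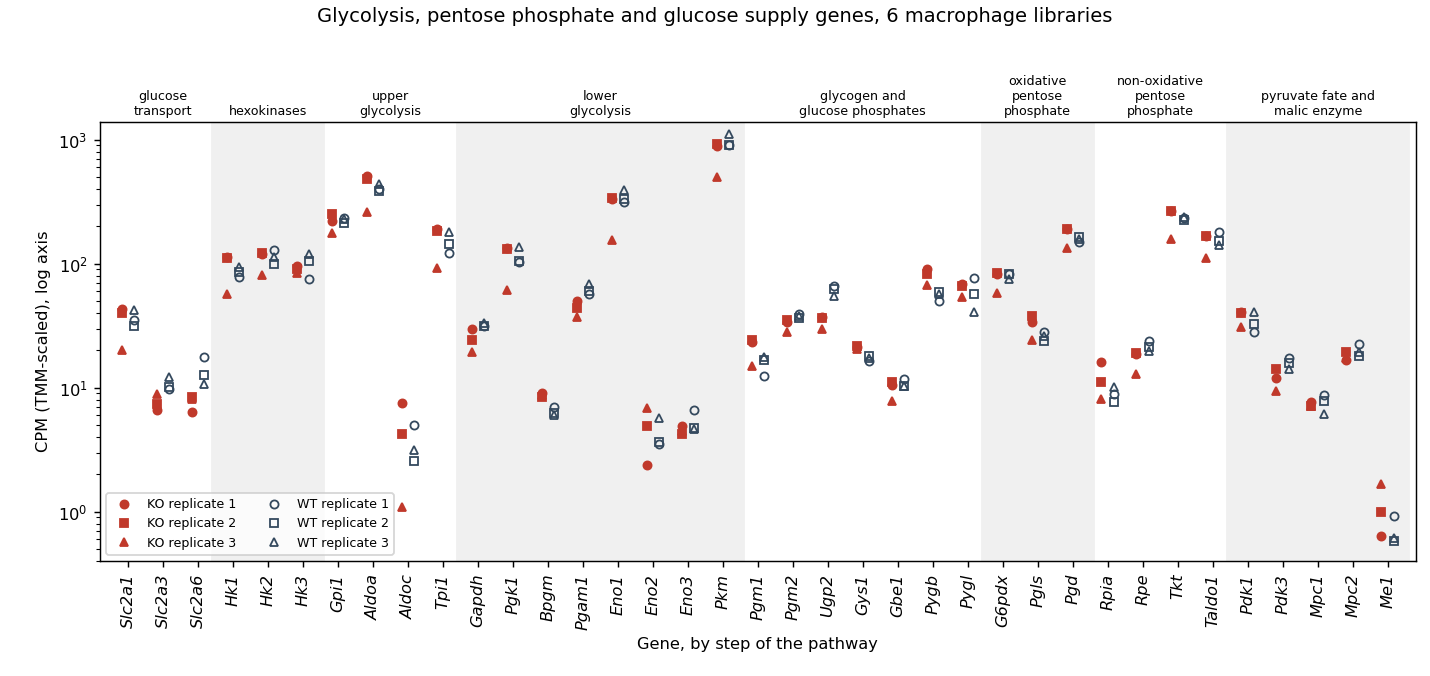
TMM-scaled CPM (log axis) of the 37 genes in each library, ordered by step of the pathway, with KO libraries as filled red symbols left of the open WT symbols and the symbol shape giving the replicate. Levels span from about 1 CPM for Me1 to between 500.2 and 1114 CPM for Pkm, and KO replicate 3 (red triangle) is the lowest of the 6 libraries in 21 genes.

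**Figure D2:**
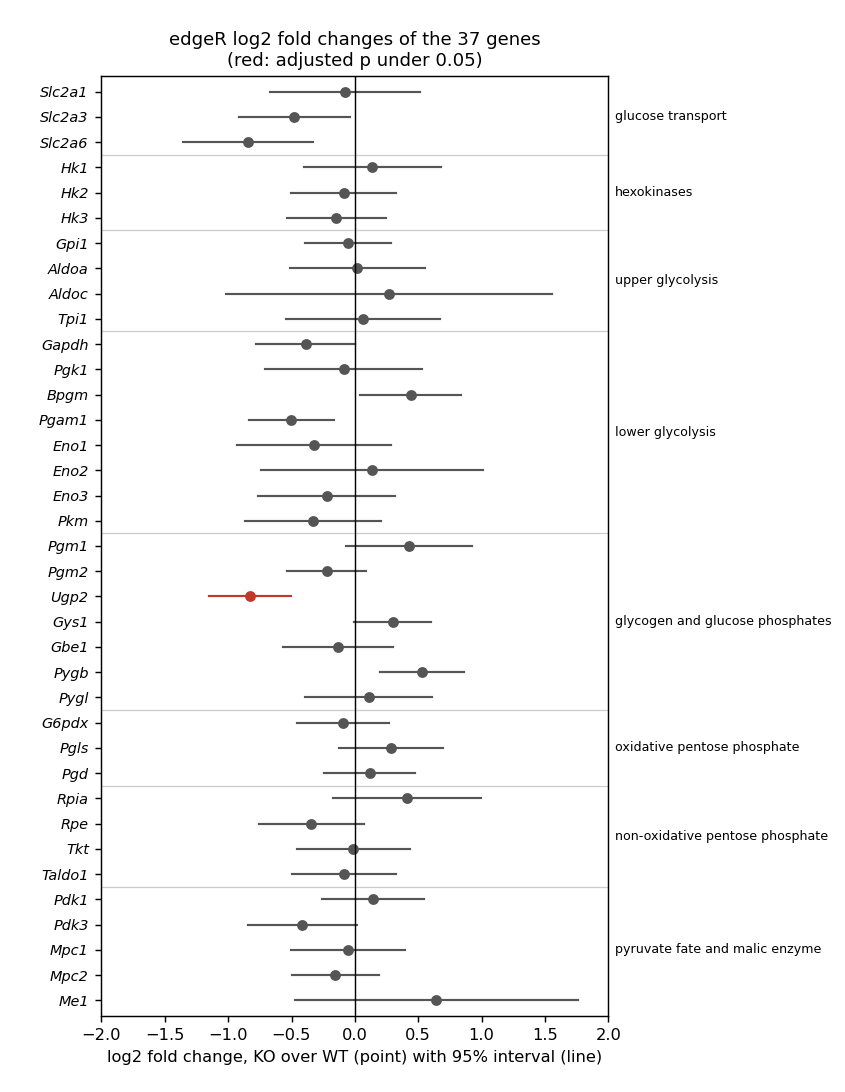
Log2 fold change of KO over WT for each gene (point) with its 95% interval (line), from edgeR. Ugp2, in red, is the gene with an adjusted p under 0.05, and the interval excludes a 2-fold change in either direction in 32 of the 37 genes.

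Ugp2 encodes UDP-glucose pyrophosphorylase, which joins glucose 1-phosphate to UTP and so makes the UDP-glucose used for glycogen and for protein glycosylation. On GRCm38 the gene lies at chr11:21321138-21371201, minus strand. It was measured at 37.3, 36.4 and 29.6 CPM in KO replicates 1 to 3, against 66.2, 62.1 and 54.9 CPM in WT replicates 1 to 3. Each KO library was below each WT library. The means were 34.4 ± 4.20 CPM in KO and 61.1 ± 5.73 CPM in WT (n = 3 each, SD), and the log2 fold change was -0.83 (SE 0.14, 95% interval -1.15 to -0.51, adjusted p = 0.014, edgeR). With each library left out in turn the log2 fold change ranged from -0.91 to -0.72, and the call was lost without KO replicate 2 (adjusted p = 0.071) or WT replicate 2 (adjusted p = 0.068). It was also lost with KO replicates 1 and 2, the most alike pair of libraries, added up as 1 sample (adjusted p = 0.058) or both left out (adjusted p = 0.057). Of 19 alternative settings 14 called it lower, and the adjusted p ranged up to 0.36, in the test against a fold of 1.5.

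The other members of the glycogen branch did not pass the edgeR test, and they did not share one direction. Limma-voom called Pygb (adjusted p = 0.0013), Pgm1 (adjusted p = 0.0090) and Gys1 (adjusted p = 0.041) higher. Pygb, the brain form of glycogen phosphorylase, which releases glucose 1-phosphate from glycogen (chr2:150786735-150831758, plus strand), was at 90.9, 83.5 and 66.9 CPM in KO replicates 1 to 3, against 50.5, 59.2 and 57.4 CPM in WT replicates 1 to 3. Every KO library was above every WT library, yet the adjusted p missed the threshold (log2 fold change 0.53, SE 0.15, adjusted p = 0.066, edgeR). DESeq2 called it higher (adjusted p = 0.031), as did edgeR without KO replicate 3 (adjusted p = 0.017), while with library sizes alone its log2 fold change was -0.08. Pygl, the liver form of the same enzyme, was at 62.9 ± 7.78 CPM in KO and 58.3 ± 18.3 CPM in WT (n = 3 each, SD), with overlapping groups. Gys1, glycogen synthase, was at 21.4, 21.6 and 20.4 CPM in KO replicates 1 to 3, against 16.3, 17.9 and 17.3 CPM in WT replicates 1 to 3. The KO libraries lay above the WT libraries in a narrow range (log2 fold change 0.30, SE 0.13, adjusted p = 0.22). Gbe1, the branching enzyme, was at 9.83 ± 1.78 CPM in KO and 10.8 ± 0.928 CPM in WT. The row named Pgm1, a phosphoglucomutase, was at 20.9 ± 5.10 CPM in KO and 15.6 ± 2.70 CPM in WT, and the row named Pgm2 at 32.6 ± 4.07 CPM in KO and 38.0 ± 1.60 CPM in WT. RefSeq lists Pgm2 as an older name of Pgm1 and Pgm1 as an older name of Pgm2, so which of the paired genes each row counts is uncertain. Over the whole branch 4 of 7 members had a log2 fold change above 0 and 3 below, and their summed level was 286, 279 and 222 CPM in KO replicates 1 to 3, against 274, 259 and 236 CPM in WT replicates 1 to 3.

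**Figure D3:**
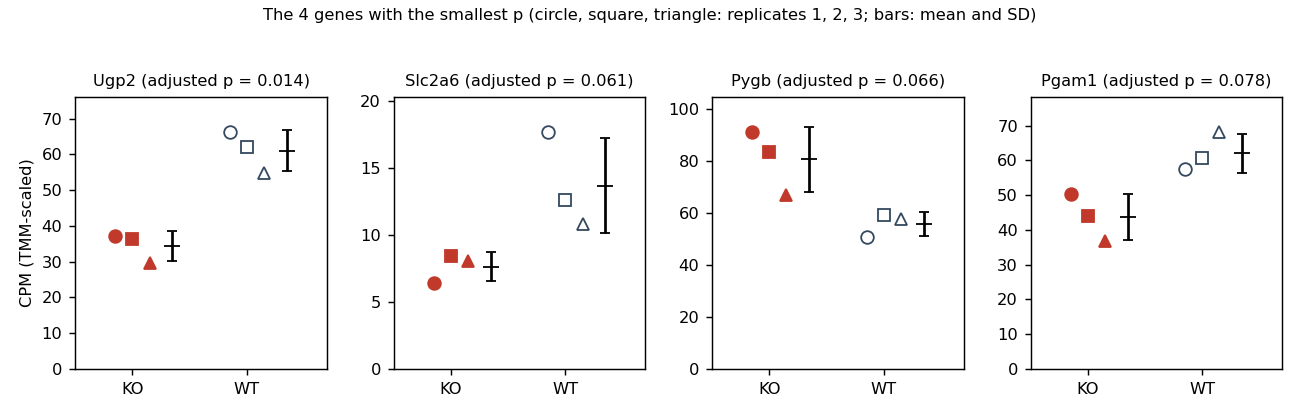
TMM-scaled CPM of Ugp2, Slc2a6, Pygb and Pgam1, the 4 genes with the smallest p, in KO (left) and WT (right) libraries, with the mean and SD of each group as bars (n = 3). The groups do not overlap in any of the 4, and Ugp2 alone has an adjusted p under 0.05.

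The promoter windows of the genes with the smallest p, and of Pgk1, show what stands before their start sites. Windows of 300 bases, from 250 before to 50 after each annotated start, were taken from RefSeq on GRCm38.p6, which matched 36 of the 37 members with 48 windows, and Slc2a3 had none. They were searched on both strands for ACGTG, the core of the element that HIF-1 is known to bind, and for CACGTG, the E-box, which contains an ACGTG on each strand. The capitals mark ACGTG, or CACGT where it lies on the other strand.
Ugp2 start 1 (chr11:21371218-21371517, minus strand): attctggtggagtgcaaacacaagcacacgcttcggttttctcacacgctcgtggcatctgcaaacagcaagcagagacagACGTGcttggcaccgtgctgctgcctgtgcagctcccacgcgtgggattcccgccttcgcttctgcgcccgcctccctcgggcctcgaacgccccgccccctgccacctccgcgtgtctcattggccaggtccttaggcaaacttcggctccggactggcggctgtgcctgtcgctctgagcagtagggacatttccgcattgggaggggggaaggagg
Ugp2 start 2 (chr11:21370580-21370879, minus strand): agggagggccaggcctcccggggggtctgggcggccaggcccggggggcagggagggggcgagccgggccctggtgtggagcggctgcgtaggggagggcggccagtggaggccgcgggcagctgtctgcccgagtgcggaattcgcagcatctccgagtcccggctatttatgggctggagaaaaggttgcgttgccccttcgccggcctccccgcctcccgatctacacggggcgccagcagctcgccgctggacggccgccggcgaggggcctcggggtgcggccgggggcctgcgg
Slc2a6 (chr2:27027949-27028248, minus strand): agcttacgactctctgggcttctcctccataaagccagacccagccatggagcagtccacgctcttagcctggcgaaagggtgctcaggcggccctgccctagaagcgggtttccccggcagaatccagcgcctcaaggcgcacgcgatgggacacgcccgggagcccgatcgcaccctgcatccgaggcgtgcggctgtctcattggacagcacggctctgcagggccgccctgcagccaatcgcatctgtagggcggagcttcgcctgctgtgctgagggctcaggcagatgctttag
Pygb (chr2:150786546-150786845, plus strand): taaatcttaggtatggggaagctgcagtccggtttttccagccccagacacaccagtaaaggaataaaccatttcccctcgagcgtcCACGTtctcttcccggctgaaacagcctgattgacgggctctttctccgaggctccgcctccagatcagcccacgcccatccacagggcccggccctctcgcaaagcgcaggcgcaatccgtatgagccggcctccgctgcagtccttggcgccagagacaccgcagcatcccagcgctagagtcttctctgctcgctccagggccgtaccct
Pgam1 (chr19:41911621-41911920, plus strand): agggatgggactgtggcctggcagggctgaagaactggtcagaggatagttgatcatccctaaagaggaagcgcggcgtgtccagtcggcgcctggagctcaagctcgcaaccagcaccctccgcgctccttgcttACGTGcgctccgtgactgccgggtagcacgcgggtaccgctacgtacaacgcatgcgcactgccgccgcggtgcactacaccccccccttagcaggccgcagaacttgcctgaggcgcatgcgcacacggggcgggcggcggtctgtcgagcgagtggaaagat
Pgk1 (chrX:106186850-106187149, plus strand): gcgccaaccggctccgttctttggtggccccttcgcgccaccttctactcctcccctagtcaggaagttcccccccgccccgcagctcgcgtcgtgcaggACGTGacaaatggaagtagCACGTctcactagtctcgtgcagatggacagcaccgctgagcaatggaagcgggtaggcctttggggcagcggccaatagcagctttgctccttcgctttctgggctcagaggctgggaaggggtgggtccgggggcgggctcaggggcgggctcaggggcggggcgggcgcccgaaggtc
ACGTG was found in 18 of the 36 matched members, against 21.8% of the 27025 symbols with a window and 23.6% of the protein-coding ones. Of the genes printed, Pgk1 held 2 matches, Pygb, Pgam1 and the first window of Ugp2 held 1 each, and the Slc2a6 window held none. CACGTG was found in 0 of 36 members, against 8.09% of all symbols. A match describes the letters of the window and not binding, and members with a match stood on both sides of 0, with Pgam1 at a log2 fold change of -0.50 and Pygb at 0.53.

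Among the glucose transporters, Slc2a1 (GLUT1), the main importer of activated macrophages, had the highest level in CPM. It was at 43.1, 40.2 and 20.3 CPM in KO replicates 1 to 3, against 35.3, 31.5 and 42.5 CPM in WT replicates 1 to 3. The groups overlapped and the level of KO replicate 3 was the lowest of all (log2 fold change -0.08, SE 0.26, adjusted p = 0.90, edgeR). Slc2a6 (GLUT6), a transporter of intracellular membranes whose gene is known to respond to inflammatory stimuli (chr2:27021363-27027998, minus strand), was at 6.40, 8.42 and 8.06 CPM in KO replicates 1 to 3, against 17.6, 12.6 and 10.8 CPM in WT replicates 1 to 3. All KO libraries were below all WT libraries, and the adjusted p missed the threshold (log2 fold change -0.84, SE 0.23, adjusted p = 0.061). DESeq2 and limma-voom called it lower (adjusted p = 0.013 and 0.0067), as did edgeR on protein-coding genes alone (adjusted p = 0.045), and the adjusted p ran over 19 alternatives from 0.0012 to 0.63. Slc2a3 (GLUT3), a high-affinity transporter, was at 7.66 ± 1.18 CPM in KO and 10.7 ± 1.35 CPM in WT (n = 3 each, SD; log2 fold change -0.48, adjusted p = 0.18), also without overlap. Scaled by exonic length, Slc2a1 made up 72.5% ± 10.5 of the level of the 3 transporters in KO and 64.4% ± 5.69 in WT, and Slc2a6 18.9% ± 6.74 in KO and 26.5% ± 6.54 in WT (n = 3 each, SD). The ranges of these shares overlapped between the groups.

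The hexokinases, which commit glucose to the cell, were present in 3 forms, of which Hk3 had the highest and Hk1 the lowest mean level per kilobase of exon in KO and WT. Hk2, the form that hypoxia and inflammatory signals are known to induce, was at 120.2, 122 and 80.6 CPM in KO replicates 1 to 3, against 130.3, 100.4 and 113 CPM in WT replicates 1 to 3. Hk1, the housekeeping form bound to mitochondria, was at 94.0 ± 31.9 CPM in KO and 85.5 ± 7.90 CPM in WT, and Hk3, a form typical of myeloid cells, at 90.3 ± 5.77 CPM in KO and 99.8 ± 22.3 CPM in WT (n = 3 each, SD). None of the 3 passed the test (adjusted p of 0.66 to 0.82, edgeR), with log2 fold changes of -0.15 to 0.14. Per length, Hk3 held 46.4% ± 5.82 of the hexokinase level in KO and 47.8% ± 6.88 in WT, Hk2 held 33.5% ± 1.92 in KO and 34.4% ± 6.97 in WT, and Hk1 held 20.1% ± 3.96 in KO and 17.8% ± 0.283 in WT. The shares of all 3 forms overlapped between the groups.

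In upper glycolysis, from the isomerisation of glucose 6-phosphate to the triose phosphates, no member passed the test. Aldoa, the main aldolase of most tissues, was at 506, 482 and 262 CPM in KO replicates 1 to 3, against 403, 385 and 444 CPM in WT replicates 1 to 3. KO replicates 1 and 2 were above all WT libraries and KO replicate 3 below them (log2 fold change 0.02, SE 0.23, adjusted p = 0.97, edgeR). Gpi1, glucose 6-phosphate isomerase, was at 217 ± 37.5 CPM in KO and 226 ± 10.9 CPM in WT, and Tpi1, triose phosphate isomerase, at 156 ± 55.7 CPM in KO and 149.8 ± 29.3 CPM in WT (n = 3 each, SD). In both, KO replicate 3 was the lowest of all 6 libraries. Aldoc, the brain form of aldolase, was low, at 7.52, 4.21 and 1.10 CPM in KO replicates 1 to 3, against 5.04, 2.55 and 3.14 CPM in WT replicates 1 to 3, and held 0.818% ± 0.470 of the aldolase level per length in KO and 0.772% ± 0.287 in WT. The annotation holds a second gene named Aldoa beside the one measured, so the length behind its level is approximate.

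In lower glycolysis, the steps that yield ATP and pyruvate, 6 of 8 members had a log2 fold change below 0 and none passed the test. Pkm, the pyruvate kinase of macrophages, had the highest level in CPM of all members, at 892, 931 and 500.2 CPM in KO replicates 1 to 3, against 904, 902 and 1114 CPM in WT replicates 1 to 3. The groups overlapped, and KO replicate 3 stood apart from the other 5 libraries (log2 fold change -0.33, SE 0.24, adjusted p = 0.45, edgeR). Pgam1, phosphoglycerate mutase (chr19:41911923-41918660, plus strand), was at 50.3, 44.1 and 36.9 CPM in KO replicates 1 to 3, against 57.4, 60.6 and 68.1 CPM in WT replicates 1 to 3. Its groups did not overlap, and the adjusted p missed the threshold (log2 fold change -0.50, SE 0.15, adjusted p = 0.078), while DESeq2 called it lower (adjusted p = 0.035). Eno1, the common enolase, was at 336, 338 and 157 CPM in KO replicates 1 to 3, against 314, 333 and 393 CPM in WT replicates 1 to 3, with KO replicates 1 and 2 inside the range of the WT libraries (log2 fold change -0.32, adjusted p = 0.52). Leaving out KO replicate 3 gave it a log2 fold change of -0.03. Pgk1, phosphoglycerate kinase, was at 134, 130.5 and 61.5 CPM in KO replicates 1 to 3, against 104, 105 and 138 CPM in WT replicates 1 to 3. This X-linked gene overlapped between the groups (adjusted p = 0.88), as did the X-linked G6pdx and Pdk3.

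Gapdh, glyceraldehyde 3-phosphate dehydrogenase, is usually among the most abundant transcripts of a cell, yet its row held 29.9, 24.3 and 19.3 CPM in KO replicates 1 to 3, against 31.4, 31.4 and 33.5 CPM in WT replicates 1 to 3. Its groups did not overlap and the adjusted p was 0.21 (edgeR, log2 fold change -0.39). Of the annotated genes 76 others, 74 of them pseudogenes, matched the Gapdh transcript at 95% identity or more over at least 300 bases, and their rows held 47.5% of the counts of Gapdh and its copies together. Row and copies added up came to 46.5 ± 10.9 CPM in KO and 61.2 ± 3.38 CPM in WT (n = 3 each, SD), again without overlap. The level of Gapdh in this table is therefore uncertain. Of the other members, Pkm had 1 matching copy that held 4.51% of the joint counts, Eno1 had 3 that held 2.04% and Me1 had 1 that held 4.07%, while those of Gpi1, Tpi1, Pgk1 and Pgam1 held under 1% each. These shares leave out reads that were counted in no row, so a low share does not show that a row is unaffected.

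The tissue-restricted forms of the lower steps were low. Eno2, the neuronal enolase, was at 2.40, 4.92 and 6.83 CPM in KO replicates 1 to 3, against 3.49, 3.65 and 5.66 CPM in WT replicates 1 to 3, and Eno3, the muscle enolase, at 4.96, 4.21 and 4.45 CPM in KO replicates 1 to 3, against 6.59, 4.71 and 4.64 CPM in WT replicates 1 to 3. Neither passed the test (adjusted p of 0.87 and 0.62, edgeR), and Eno1 held 92.5% ± 3.99 of the enolase level per length in KO and 94.1% ± 1.18 in WT. Muscle fibre markers moved in the same libraries, with 8 of 10 tested called higher, where 4.39% of all tested genes were called higher (edgeR). They summed to 107 to 154 CPM in KO and 26.2 to 34.9 CPM in WT, and their part in any member's level was not tested. The log2 fold change of Eno3 was -0.22, and the muscle forms Pgam2 and Pygm were at 1.35 ± 0.337 CPM in KO and 0.965 ± 0.435 CPM in WT and at 1.46 ± 0.400 CPM in KO and 0.931 ± 0.182 CPM in WT. Bpgm makes 2,3-bisphosphoglycerate, known from red blood cells, and was at 9.12, 8.35 and 8.77 CPM in KO replicates 1 to 3, against 6.98, 6.28 and 6.07 CPM in WT replicates 1 to 3. The KO libraries lay above the WT libraries (log2 fold change 0.44, adjusted p = 0.17). Markers of red blood cells summed to 0.713 to 3.03 CPM in KO and 0.558 to 2.60 CPM in WT, and Slc4a1 was at 0 in all 6 libraries.

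The oxidative pentose phosphate pathway, which makes NADPH, held no gene called by edgeR. Pgd, 6-phosphogluconate dehydrogenase, was at 190.2, 191 and 133 CPM in KO replicates 1 to 3, against 150.3, 165 and 159 CPM in WT replicates 1 to 3. G6pdx, the first and rate-limiting enzyme, was at 75.2 ± 14.8 CPM in KO and 80.4 ± 4.67 CPM in WT, and Pgls, the lactonase between them, at 32.0 ± 7.02 CPM in KO and 26.2 ± 2.17 CPM in WT (n = 3 each, SD), with adjusted p-values of 0.38 to 0.77 over the 3 genes (edgeR). The summed level of the 3 was 307, 313 and 215 CPM in KO replicates 1 to 3, against 262, 272 and 261 CPM in WT replicates 1 to 3. In Pgd and Pgls KO replicates 1 and 2 lay above all WT libraries, and KO replicate 3 had the lowest level of Pgd and G6pdx.

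The non-oxidative steps, which return pentoses to glycolysis, had Tkt, transketolase, as the member with the highest CPM, though not per kilobase, where Taldo1 was higher. Tkt was at 265, 267 and 158 CPM in KO replicates 1 to 3, against 232, 227 and 238 CPM in WT replicates 1 to 3. Its log2 fold change of -0.01 (adjusted p = 0.98, edgeR) is a mean over KO libraries on both sides of WT. Taldo1, transaldolase, was at 149 ± 32.6 CPM in KO and 158 ± 19.3 CPM in WT, and Rpia, ribose 5-phosphate isomerase, at 11.8 ± 4.02 CPM in KO and 8.87 ± 1.21 CPM in WT (n = 3 each, SD). Rpe, ribulose 5-phosphate epimerase, was at 18.9, 19.1 and 13.0 CPM in KO replicates 1 to 3, against 23.9, 21.1 and 19.8 CPM in WT replicates 1 to 3. Its groups did not overlap, and the adjusted p was 0.30.

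Among genes that set the fate of pyruvate, Pdk1, a kinase that inhibits pyruvate dehydrogenase and a known HIF-1 target, was at 41.1, 40.4 and 30.8 CPM in KO replicates 1 to 3, against 28.2, 32.8 and 40.7 CPM in WT replicates 1 to 3. The groups overlapped (log2 fold change 0.14, SE 0.18, adjusted p = 0.68, edgeR). Pdk3, another kinase of the same enzyme, was at 11.9, 14.1 and 9.35 CPM in KO replicates 1 to 3, against 17.3, 15.8 and 14.1 CPM in WT replicates 1 to 3, with KO replicate 2 level with the lowest WT library (adjusted p = 0.23). Per length, Pdk1 made up 53.1%, 48.5% and 52.0% of the level of both kinases in KO replicates 1 to 3, against 35.0%, 40.6% and 48.7% in WT replicates 1 to 3. KO replicate 2 and WT replicate 3 had nearly the same share, and the other KO libraries lay above all WT libraries. Mpc1 and Mpc2, the subunits of the mitochondrial pyruvate carrier, were at 7.30 ± 0.277 CPM in KO and 7.59 ± 1.29 CPM in WT and at 17.9 ± 1.35 CPM in KO and 19.9 ± 2.30 CPM in WT, and Me1, the cytosolic malic enzyme, at 1.10 ± 0.526 CPM in KO and 0.708 ± 0.194 CPM in WT (n = 3 each, SD). Me1 had 12 to 26 counts per library, and its 95% interval does not exclude a 2-fold rise at this depth (log2 fold change from -0.48 to 1.76).

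**Figure D4:**
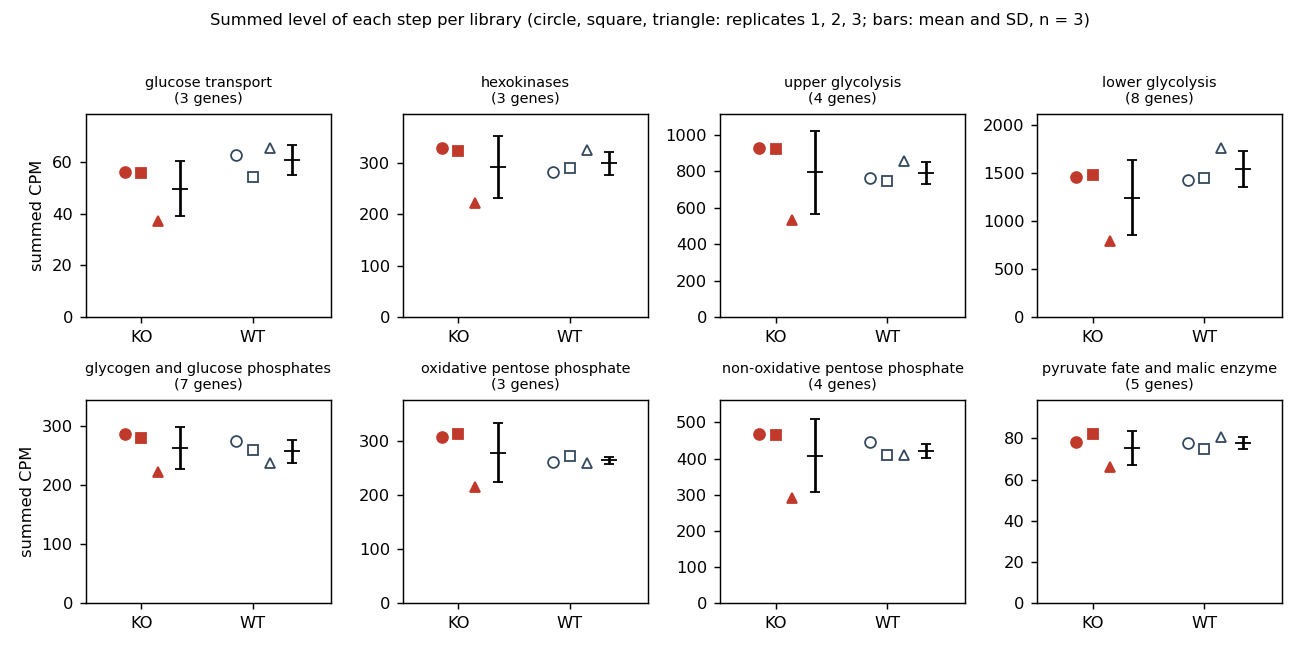
CPM summed over the genes of each of 8 steps in every library, KO left and WT right, with the mean and SD of each group (n = 3). The groups overlap in all 8 steps, and KO replicate 3 (triangle) is the lowest of the 6 libraries in each.

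Levels of different members were compared per kilobase of exon. On this scale Pkm was highest in KO and WT, at 155 ± 47.6 CPM per kb in KO and 195 ± 24.4 in WT (n = 3 each, SD). Aldoa followed at 143 ± 46.3 in KO and 141 ± 10.3 in WT, within the spread of Pkm in KO. Taldo1 came next at 68.6 ± 15.0 CPM per kb in KO and 73.0 ± 8.89 in WT. Tpi1, Eno1 and Pgk1 lay between 48.5 and 56.8 CPM per kb in KO, within their spread, and between 51.5 (Pgk1) and 64.4 (Eno1) in WT, where the SDs were 8.55 for Pgk1 and 7.67 for Eno1. Exonic length here joins the exons of all annotated transcripts, so it overstates the length of genes with many long variants.

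A pattern that runs through the steps is the low level of the KO replicate 3 library. It had the lowest CPM of the 6 libraries in 21 of 37 members (56.8%), where this holds for 25.6% of all tested genes, and the highest in 2, Eno2 and Me1, where this holds for 27.5%. The 21 were 4 of 4 genes in upper glycolysis, 5 of 8 in lower glycolysis, 3 of 4 in the non-oxidative and 2 of 3 in the oxidative pentose phosphate pathway, 2 of 3 hexokinases, 3 of 7 glycogen genes, 1 of 3 transporters and 1 of 5 genes of pyruvate fate. The CPM of all members added up to 3912, 3928 and 2381 CPM in KO replicates 1 to 3, against 3596, 3553 and 4001 CPM in WT replicates 1 to 3. Relative to the mean of the other 5 libraries, KO replicate 3 was at 0.458 of the level for Eno1, 0.503 for Pgk1, 0.527 for Pkm and 0.559 for Tpi1. Its total of protein-coding counts, 9176529, was close to the 9243301 of KO replicate 2, and the cause of its low levels was not tested.

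The members' median log2 fold change lay on the other side of 0 without that library. Without KO replicate 3 the median log2 fold change of the members was 0.09, with 22 of 37 above 0, and edgeR called 1 lower (Ugp2) and 1 higher (Pygb), where it called 4.44% of all genes lower and 6.21% higher. With KO replicate 3 as the only KO library, assumed to vary like the others, the median was -0.52 with 5 above 0. A sex term leaves the genotype effect to the same library, and that fit called 9 members lower (Slc2a1, Aldoa, Gapdh, Pgk1, Pgam1, Eno1, Pkm, Tkt and Ugp2) and 0 higher, where it called 4.68% of all genes lower and 5.30% higher. In Ugp2 and Slc2a6 every KO library was below every WT library, so both fits had to place them below 0. Ugp2 was at -0.72 without KO replicate 3 and -1.10 with it alone, and Slc2a6 at -0.88 and -0.81. Aldoa was at 0.27 and -0.71 in the same order, and Pkm at -0.09 and -1.01. Limma-voom, which gave this library the lowest weight of the 6, put the members' median at 0.12. The 3 WT libraries, like KO replicate 3, had Xist near 0, and their summed member levels were all above that of KO replicate 3. They also differ from it in genotype, so this does not bear on sex type. Within the KO group, sex type and the library itself cannot be told apart.

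**Figure D5:**
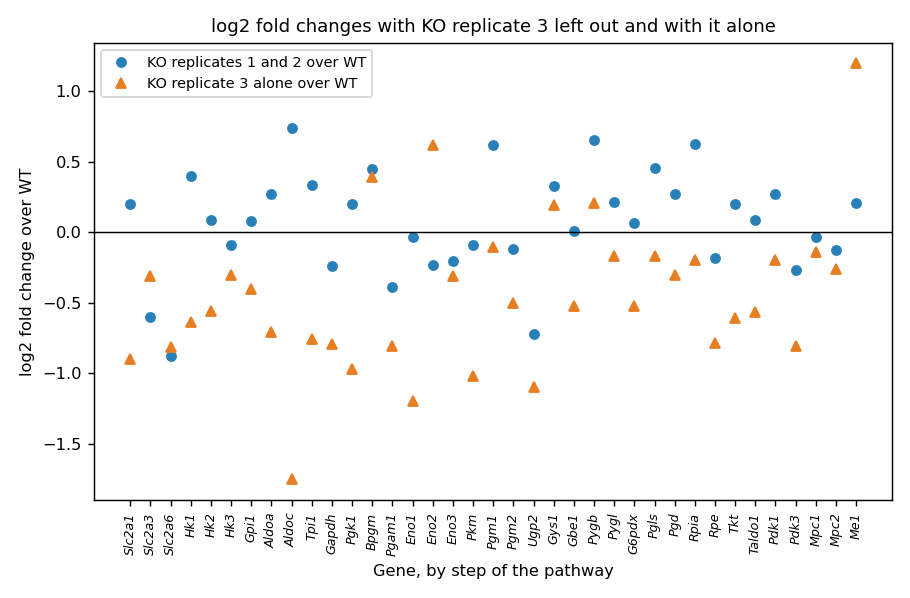
Log2 fold change over WT of each gene, by step, with KO replicate 3 left out (blue circles) and with it as the only KO library (orange triangles), from edgeR. The median is 0.09 without that library and -0.52 with it alone. Ugp2 and Slc2a6 lie below 0 in both, which follows from each of their KO libraries being below each WT library.

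Genes next to these steps, taken from 7 lists that hold 102 names of which 76 were tested, had 2 called higher and 1 lower in KO (edgeR), against 4.39% and 2.25% of all tested genes. By edgeR the lists thus held no larger share of calls than the whole table. This holds for edgeR alone, and counts from DESeq2 and limma-voom are given below. List medians of the log2 fold change ran from -0.18 for the pyruvate dehydrogenase complex to 0.29 for other isoforms, against 0.01 over all tested genes. Of 10 tested other isoforms of the same steps 1 fell. This was Me2, the mitochondrial malic enzyme, at 20.6, 22.0 and 18.3 CPM in KO replicates 1 to 3, against 31.3, 31.4 and 34.7 CPM in WT replicates 1 to 3 (log2 fold change -0.68, SE 0.14, adjusted p = 0.024). Of 13 tested further genes of glycogen metabolism edgeR called 1 higher, while 11 had a log2 fold change above 0 (median 0.26). The called gene was Epm2a, which encodes the glycogen phosphatase laforin. It was at 5.70, 6.99 and 5.67 CPM in KO replicates 1 to 3, against 3.37, 2.19 and 2.11 CPM in WT replicates 1 to 3 (log2 fold change 1.26, SE 0.27, adjusted p = 0.031, edgeR). Both lost their call without KO replicate 1 or 2 or WT replicate 2 or 3 (with adjusted p-values of up to 0.092 for Me2 and 0.14 for Epm2a). Of 10 tested genes of the shuttles that pass electrons from cytosolic NADH to mitochondria 1 rose, Slc25a11, the oxoglutarate carrier. It was at 66.2, 64.4 and 50.0 CPM in KO replicates 1 to 3, against 40.1, 42.0 and 39.1 CPM in WT replicates 1 to 3 (log2 fold change 0.57, SE 0.14, adjusted p = 0.046, edgeR). Among the 6 fits with a library left out its call held only without KO replicate 3 (with adjusted p-values of up to 0.22 in the others), and with library sizes alone its log2 fold change was -0.04. The pyruvate dehydrogenase complex, the hexosamine pathway, the entry of ribose and nucleotide sugars, and regulators of glycolytic genes such as Hif1a and Myc had 43 tested genes. These lists were pooled because edgeR called 0 of their genes. In the pool DESeq2 called 3 higher and 1 lower, and limma-voom called 9 higher and 4 lower. Among the lists with an edgeR call, limma-voom called 5 of 13 glycogen genes higher and 0 lower. It called 1 of 10 other isoforms higher and 1 lower, and 2 of 10 shuttle genes higher and 0 lower. DESeq2 called 1 glycogen gene and 1 shuttle gene higher and 1 other isoform lower. Over all genes DESeq2 called 7.29% higher and 5.19% lower, and limma-voom 17.4% higher and 15.0% lower. Of the 12 tested regulators 6 had a log2 fold change above 0, and DESeq2 called 1 higher and 1 lower. Hif1a was at 115, 116 and 103 CPM in KO replicates 1 to 3, against 156, 146 and 136 CPM in WT replicates 1 to 3 (log2 fold change -0.39, adjusted p = 0.089, edgeR). Txnip was at 183 ± 30.3 CPM in KO and 114 ± 27.7 CPM in WT (SD, log2 fold change 0.69, adjusted p = 0.078, edgeR). Neither overlapped between the groups. The transporters Slc2a2 and Slc2a4 and the pyruvate kinase Pklr were at no more than 0.285 CPM in any library. Other transporters were present. Slc2a8 was at 10.4, 15.3 and 15.9 CPM in KO replicates 1 to 3, against 10.1, 9.65 and 7.10 CPM in WT replicates 1 to 3, without overlap (log2 fold change 0.63, adjusted p = 0.13, edgeR). Slc2a9 was at 10.9 ± 1.77 CPM in KO and 11.5 ± 0.218 CPM in WT (SD, adjusted p = 0.85, edgeR). Neither is counted in the transporter shares given above.

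Markers of other cell types moved with the groups in the libraries in which Ugp2 fell. The 10 endothelial genes summed to 25.3 to 48.9 CPM in KO and 64.1 to 99.1 CPM in WT, with 3 of 10 tested called lower. The 8 fibroblast genes summed to 135 to 185 CPM in KO and 12.2 to 40.6 CPM in WT, with 4 of 7 tested called higher. The 6 myoblast genes summed to 16.4 to 22.8 CPM in KO and 3.29 to 4.54 CPM in WT, with 2 of 4 tested called higher. The summed levels of these 3 cell types did not overlap between the groups. Over all tested genes edgeR called 4.39% higher and 2.25% lower. The 11 neutrophil genes summed to 92.3 to 311 CPM in KO and 67.1 to 95.2 CPM in WT, most of it Mmp9 and Csf3r, with Mmp9 called higher and Mmp8 lower, while Ly6g was at 0 in all libraries. Of the 5 tested neutrophil genes 2 had a log2 fold change above 0, and their median was -0.99. The 8 lymphocyte genes summed to under 1 CPM in each library. The macrophage markers themselves differed, with Csf1r at 1765 ± 154 CPM in KO and 852 ± 101 CPM in WT and Cd68 at 475 ± 75.4 CPM in KO and 793 ± 78.9 CPM in WT (n = 3 each, SD; adjusted p = 0.010 and 0.034). The part of these differences in the level of Ugp2 or of any other member was not tested.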

How the data were processed

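RNA was sequenced from macrophages that the submitters sorted by FACS from calf muscle and amplified with a SMARTer kit for low input, per the labels' protocols. The deposited table holds raw read counts per gene symbol. The submitters' processing notes name HISAT2, featureCounts and GRCm38. Neither annotation version nor strand setting is given in the sources used here, so overlapping and antisense genes cannot be told apart. Replicates were numbered in accession order. The members and lists were chosen with earlier results of these data known.

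A set of 26 rows with dates for names (0.0913% to 0.163% of counts) was left out. Genes with low counts were removed with filterByExpr, and edgeR 4.0.16 (R 4.3.3, TMM, quasi-likelihood test, two-sided) was fitted on all 6 libraries with Benjamini-Hochberg adjustment over 14987 genes, a threshold of 0.05. Alternatives, 19 in all, included DESeq2 1.42.0, limma 3.58.1 (voom with sample weights), other scalings and filters, a sex term (from Xist and Ddx3y), and each library left out. Member counts ran from 12 to 37962 per library, with at least 100 in every library for 33 members, and SEs were 0.13 to 0.57 on the log2 scale. Exonic lengths and gene coordinates came from GENCODE M21 (GRCm38), and copies were sought with blastn 2.17.0. Called members, non-overlapping members with a log2 fold change of at least 0.5 in size and the highest member of each step were named by rule, and all others were added so that each member is accounted for. The fit was tested on simulated data. There it recovered 4.48% of 67 genes changed 1.5-fold, 44.8% of 67 changed 2-fold and 95.5% of 66 changed 4-fold. It called 0.0971% of the unchanged genes. A change of 1.5-fold would thus mostly go uncalled.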

Additional observations from a re-analysis of the deposited data

How the results depend on the processing

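The number of genes called was 995 and became 6308 with library sizes alone (300 higher and 6008 lower, against 658 and 337), 1957 with no count filter, 1870 with DESeq2, 4850 with limma-voom, 1495 with a sex term, 180 against a fold of 1.5, 149 with KO replicates 1 and 2 left out, 282 with both added up as 1 sample, and 189 to 1652 with 1 library left out (293 without KO replicate 1, 189 without KO replicate 2, 1652 without KO replicate 3, and 587, 275 and 477 without WT replicates 1 to 3). Members called lower were 1 (2.25% of all genes were called lower) and became 23 with library sizes alone (40.1%) and 3 with no count filter (2.84%). They were 3 with DESeq2 (5.19%), 4 with limma-voom (15.0%), 2 with protein-coding genes alone (4.02%) and 9 with a sex term (4.68%). Against a fold of 1.5 they were 0 (0.207%), with KO replicates 1 and 2 added up 0 (0.371%), and with 1 library left out 0 to 1 (0.221% to 4.44%). Members called higher were 0 (4.39% of all genes were called higher) and became 1 with DESeq2 (7.29%), 7 with limma-voom (17.4%) and 0 to 1 with 1 library left out (0.974% to 6.21%). The median log2 fold change of the members was -0.08 and became -0.69 with library sizes alone, -0.47 with a sex term and -0.52 with KO replicates 1 and 2 left out.

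Pgd turned from 0.12 to -0.50 with library sizes alone (adjusted p = 0.049, edgeR), and Aldoa from 0.02 to -0.65 with a sex term (adjusted p = 0.038). Over all members and alternatives, 650 values kept direction and side of the threshold or stayed uncalled, 45 passed it newly (21 of them with library sizes alone), 5 lost a call, all of them Ugp2, and 2 are the reversals above. The cause was not tested. Limma-voom gave KO replicate 3 a weight of 0.220 and WT replicate 2 a weight of 3.52. The title endings of the libraries, the shared replicate numbers, did not pair them, with correlations of deviations of 0.02, -0.06 and -0.09 and no library closest to its own number, and a replicate block called 267 genes, with 1 member lower and a median of -0.11.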
